A study of Homo sapiens with 2 samples.

Results

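The primitive streak homeobox and MESP factors described here are 10 genes, taken by NCBI gene number from the 18518 gene numbers of both deposited tables, and none was chosen from a threshold on its values. They are MIXL1, GSC, LHX1, EVX1, OTX2, CDX1, CDX2, CDX4, MESP1 and MESP2. RNA was sequenced from H1 cells labelled MEIS1-/- (1 library) and from wild-type H1 cells (1 library). H1 is an established line of human embryonic stem cells. MEIS1 encodes a homeodomain protein of the TALE class that binds DNA with HOX and PBX proteins. Both groups received 40 ng/ml activin A with 50 ng/ml BMP4 for 2 days, then 40 ng/ml VEGF with 50 ng/ml bFGF for 2 days, in custom mTeSR1 medium, and were collected at day 3, within the second step. The labels give no clone, no deleted part of MEIS1 and no separate cultures.

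The primitive streak is the band of the gastrulating embryo through which epiblast cells leave to form mesoderm and endoderm. Activin and NODAL signals, relayed by SMAD proteins with FOXH1, together with BMP and WNT, switch on its transcription factors. Its anterior end makes endoderm and axial mesoderm, its middle makes heart and body wall mesoderm, and its posterior end makes extraembryonic mesoderm, from which the first blood cells come. GSC, LHX1 and OTX2 are known mainly from the anterior end, MIXL1 from most of the streak, EVX1 and the CDX genes from the posterior end, and the MESP genes from nascent and segmenting mesoderm.

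Totals after rounding were 5296397 counts in the library labelled MEIS1 deleted and 5202847 in the wild-type library. MEIS1 itself had 68 counts in the library labelled deleted and 89 in the wild-type library, and its interval included no difference (log2 ratio -0.40, -0.88 to 0.07), so its level did not check the label. With 1 library per genotype there was no test and no replicate check, and every difference compares these 2 libraries. Folds and log2 ratios are the library labelled deleted over wild type, from counts scaled for depth with a pseudocount of 1. Each carries an exact Clopper-Pearson 95% interval that covers counting error only. A gene is called higher or lower where that interval excludes a ratio of 1. In bulk RNA, fewer cells of a type and less RNA per cell cannot be told apart.

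Of the 10 factors, 7 had at least 10 counts in 1 library or more. LHX1, OTX2, EVX1, MIXL1 and MESP2 were lower in the library labelled deleted, CDX2 was higher, and CDX1 had an interval that included 1. Over all 14381 genes compared, 14.7% were lower and 15.4% were higher by the same rule, with a median log2 ratio of 0.0032. The point ratios of the 5 lower factors were all lower by at least 2-fold, which held for 2.95% of all genes, while 2.9% were higher by at least 2-fold. The factors were chosen with earlier results of these data known. MESP2 reached the minimum only through the wild-type library and CDX1 only through the library labelled deleted, so those 2 had to differ in their point values. GSC, CDX4 and MESP1 stayed under the minimum in both libraries.

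The promoters of the 5 factors with both a call and a RefSeq window are shown, so that the lower factors MIXL1, EVX1, MESP2 and OTX2 can be set beside CDX2, the higher one. They are RefSeq windows of 300 bases on build GRCh38.p14, 250 before and 50 after the gene's start, 5′ to 3′ on the gene's strand. No count is tied to these coordinates, since the submitters' processing notes name build hg19. Capitals mark matches, on either strand, to any of 6 motifs. These are TGACAG (the MEIS core), AGGTGT (a T-box core), CTTTGAT (TCF and LEF), AATNCACA (FOXH1), TAATCC (the homeodomain type of GSC and OTX2) and TTTATNG (CDX).
MIXL1, chr1:226223414-226223713, plus strand: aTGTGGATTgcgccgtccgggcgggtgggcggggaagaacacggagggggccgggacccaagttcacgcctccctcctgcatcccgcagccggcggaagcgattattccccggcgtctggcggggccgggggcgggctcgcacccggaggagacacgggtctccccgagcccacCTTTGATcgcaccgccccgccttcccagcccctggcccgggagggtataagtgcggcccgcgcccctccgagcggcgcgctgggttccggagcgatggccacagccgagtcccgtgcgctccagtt
EVX1, chr7:27242552-27242851, plus strand: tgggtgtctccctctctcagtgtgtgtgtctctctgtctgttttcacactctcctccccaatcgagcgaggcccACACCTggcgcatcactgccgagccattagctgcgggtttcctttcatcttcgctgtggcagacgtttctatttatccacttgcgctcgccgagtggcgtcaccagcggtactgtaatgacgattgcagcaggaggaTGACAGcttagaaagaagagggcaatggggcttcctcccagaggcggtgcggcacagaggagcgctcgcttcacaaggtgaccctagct
MESP2, chr15:89776082-89776381, plus strand: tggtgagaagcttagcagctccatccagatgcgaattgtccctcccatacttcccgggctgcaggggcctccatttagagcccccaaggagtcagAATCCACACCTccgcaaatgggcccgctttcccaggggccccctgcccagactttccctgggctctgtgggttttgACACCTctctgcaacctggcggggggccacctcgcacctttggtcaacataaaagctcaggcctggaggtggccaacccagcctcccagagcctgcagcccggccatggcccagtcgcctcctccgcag
OTX2, chr14:56805618-56805917, minus strand: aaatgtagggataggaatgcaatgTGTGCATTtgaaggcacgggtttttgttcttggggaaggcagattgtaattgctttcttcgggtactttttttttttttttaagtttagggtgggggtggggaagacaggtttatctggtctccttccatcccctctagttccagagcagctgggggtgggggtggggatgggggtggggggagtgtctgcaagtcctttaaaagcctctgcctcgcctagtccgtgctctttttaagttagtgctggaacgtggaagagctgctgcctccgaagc
OTX2, chr14:56810430-56810729, minus strand: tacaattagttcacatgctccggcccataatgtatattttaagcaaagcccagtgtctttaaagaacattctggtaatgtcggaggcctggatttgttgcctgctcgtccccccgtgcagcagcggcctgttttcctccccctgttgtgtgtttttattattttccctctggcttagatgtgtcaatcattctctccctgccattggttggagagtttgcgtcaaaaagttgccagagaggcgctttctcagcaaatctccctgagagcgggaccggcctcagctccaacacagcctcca
CDX2, chr13:27969266-27969565, minus strand: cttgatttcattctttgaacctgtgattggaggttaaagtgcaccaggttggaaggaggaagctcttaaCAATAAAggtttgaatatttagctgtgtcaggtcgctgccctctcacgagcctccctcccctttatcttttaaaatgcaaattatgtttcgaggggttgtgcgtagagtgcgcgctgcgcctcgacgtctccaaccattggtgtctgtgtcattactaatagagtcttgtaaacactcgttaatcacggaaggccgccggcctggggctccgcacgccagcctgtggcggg

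The MIXL1 window held a FOXH1 match at base -249 and a TCF and LEF match at base -76, counted from the start of the gene to the first base of the match. The EVX1 window held a T-box core at -176 and a MEIS core at -39. The MESP2 window held a FOXH1 match at -155 that overlaps a T-box core at -150, and a further T-box core at -79. Of the OTX2 windows, the one that begins at 56805618 held a FOXH1 match at -226 and the one that begins at 56810430 held no match to any of the motifs. The CDX2 window held a match to the CDX motif at -181. RefSeq windows were matched for 7 of the 10 factors, 8 windows in all because OTX2 has 2. LHX1, CDX1 and MESP1 had no window in the set used, so LHX1, the lower factor with the most counts, is not covered. The windows of GSC and CDX4, which had no call, held no match. The FOXH1 letters were in 3 of the 8 windows and in 3.31% of all 35116 windows. The T-box core was in 2 of 8 and in 11.4% of all, the MEIS core in 1 of 8 and 15.8%, the TCF and LEF letters in 1 of 8 and 2.62%, and the CDX letters in 1 of 8 and 9.73%. The letters TAATCC were in 0 of the 8 windows and in 6.36% of all. A match is a description of the sequence and not a bound site.

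**Figure D1:**
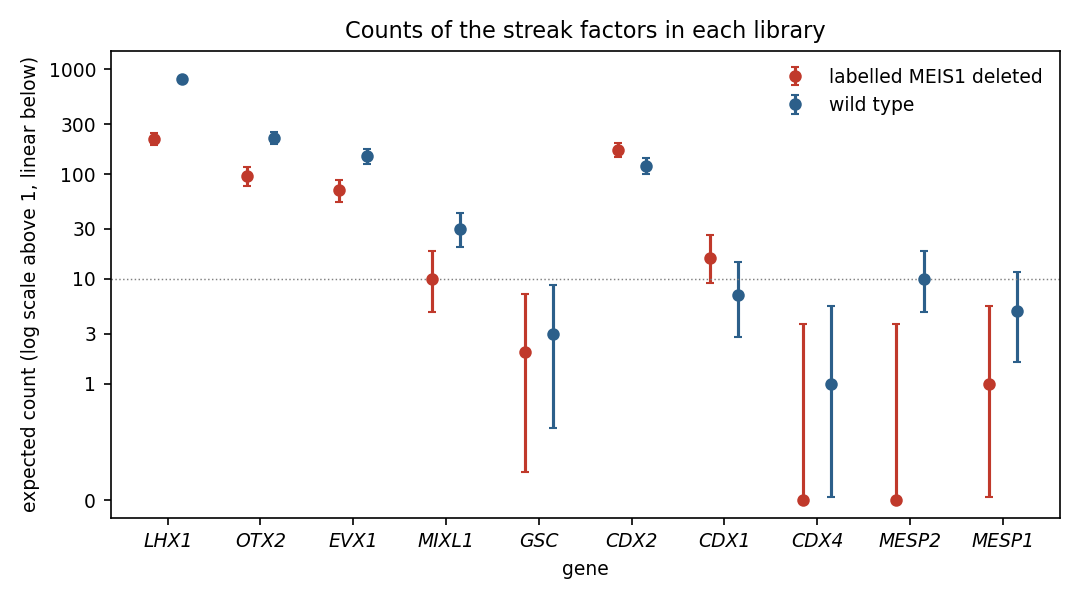
Expected counts of the 10 factors in the library labelled MEIS1 deleted (left point of each pair) and in the wild-type library (right point), 1 library each, on an axis that is logarithmic above 1 and linear below. Bars are exact 95% Poisson intervals and the dotted line is the minimum of 10 counts; LHX1 stands at 217 counts labelled deleted against 812 in wild type, and CDX2 at 169 labelled deleted against 120 in wild type.

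LHX1 (gene 3975, chromosome 17), a LIM homeodomain factor needed for head formation in the mouse, had 217 counts in the library labelled deleted and 812 in the wild-type library. Its count intervals were 189 to 248 in the library labelled deleted and 757 to 870 in wild type and did not overlap. LHX1 was 3.77-fold lower (3.25 to 4.41). Of the 14381 genes compared, 94 had a lower ratio. Per length, its level was 11.91 FPKM in the library labelled deleted and 45.36 FPKM in the wild-type library.

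OTX2 (gene 5015, chromosome 14), a homeodomain factor of the pluripotent epiblast, the anterior streak and the later forebrain, had 95 counts in the library labelled deleted and 220 in the wild-type library. It was 2.33-fold lower (1.83 to 3.01), at 8.84 FPKM in the library labelled deleted against 20.44 FPKM in wild type. OTX2 was the only factor of the 10 with several transcripts in the files, 7 in all. The length that the tables gave for it was 2037 bases in the library labelled deleted and 2077 bases in the wild-type library. The other 7 factors listed in both tables had the same length in each.

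MIXL1 (gene 83881, chromosome 1), a homeodomain factor induced by activin in the streak, had 10 counts in the library labelled deleted and 30 in the wild-type library, or 2.81 FPKM in the library labelled deleted and 8.58 FPKM in wild type. It was 2.85-fold lower, with a wide interval of 1.44 to 6.95. GSC (gene 145258, chromosome 14), a homeodomain repressor of the organizer, had 2 counts in the library labelled deleted and 3 in wild type. Its log2 ratio of -0.43 had an interval of -4.18 to 2.53, so a difference in GSC was not detectable at this depth.

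EVX1 (gene 2128, chromosome 7), a relative of the fly even-skipped gene and a marker of the posterior streak, had 70 counts in the library labelled deleted and 148 in the wild-type library. It was 2.12-fold lower (1.60 to 2.88), at 7.16 FPKM in the library labelled deleted against 15.41 FPKM in wild type. The 5 non-CDX homeobox factors together had 394 counts in the library labelled deleted and 1213 in the wild-type library, a 3.11-fold lower sum (2.77 to 3.49). LHX1 held most of that sum, with 217 counts in the library labelled deleted and 812 in wild type.

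**Figure D2:**
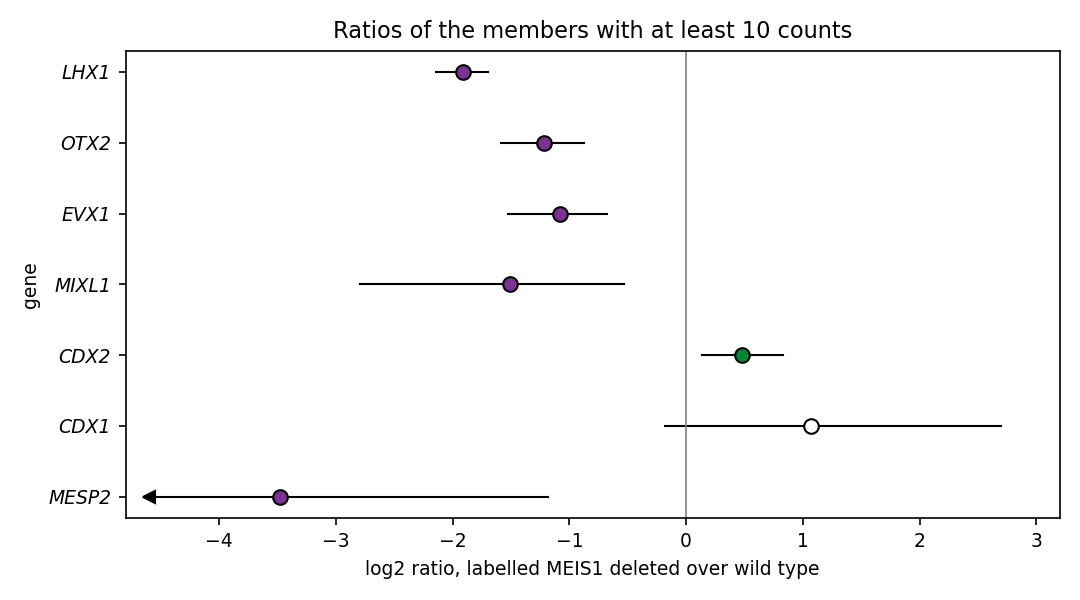
Log2 ratio of the library labelled MEIS1 deleted over wild type for the 7 factors with at least 10 counts, with exact 95% counting intervals. Purple points are lower, the green point is higher and the white point has an interval that includes 0; the arrow marks MESP2, which had 0 counts in the library labelled deleted and no finite lower limit, and whose point rests on the pseudocount.

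The CDX genes are caudal-type homeobox genes that set posterior identity and activate HOX genes, and in zebrafish cdx4 is needed for blood progenitors. CDX2 (gene 1045, chromosome 13), also a factor of the trophectoderm and the intestine, had 169 counts in the library labelled deleted and 120 in the wild-type library. It was 1.39-fold higher (1.10 to 1.78), at 13.49 FPKM in the library labelled deleted against 9.75 FPKM in wild type. CDX1 (gene 1044, chromosome 5) had 16 counts in the library labelled deleted and 7 in wild type, and its ratio of 2.10 had an interval of 0.88 to 6.50. CDX4 (gene 1046, chromosome X) had 0 counts in the library labelled deleted, where up to 3 counts could have been missed, and 1 in the wild-type library. The 3 CDX genes together had 185 counts in the library labelled deleted and 128 in wild type, a 1.43-fold higher sum (1.14 to 1.81) of which CDX2 held most. CDX2 and EVX1, both known from the posterior streak, had intervals on opposite sides of 1.

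MESP1 and MESP2 are neighbouring basic helix-loop-helix genes of chromosome 15. In the mouse MESP1 marks early heart mesoderm and MESP2 acts in somite segmentation. MESP2 (gene 145873) had 0 counts in the library labelled deleted and 10 in the wild-type library. With the 0 set at a floor of 3 counts it was 3.37-fold lower, which leaves out the counting error of the wild-type library. Its counting interval began at 2.26-fold lower, a log2 ratio of -1.18, and had no finite limit beyond. MESP1 (gene 55897) had 1 count in the library labelled deleted and 5 in wild type, with a log2 ratio of -1.60 and an interval of -7.90 to 0.82. Their summed counts were 1 in the library labelled deleted and 15 in the wild-type library, 8.08-fold lower with an interval of 2.33 to 638. All 10 factors had counts that were whole within 0.005, so none carried a fraction from reads divided between related genes.

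By level per length, the order of the factors differed between the libraries. In the library labelled deleted CDX2 stood first, followed by LHX1, OTX2 and EVX1, and each of these neighbours had FPKM intervals that overlapped (CDX2 11.5 to 15.7, LHX1 10.4 to 13.6, OTX2 7.15 to 10.8, EVX1 5.58 to 9.05). MIXL1 followed at 2.81 FPKM, apart from EVX1, and CDX1 (1.72 FPKM), GSC (0.32 FPKM) and MESP1 (0.16 FPKM) overlapped with their neighbours. In the wild-type library LHX1 stood first and apart from the rest (42.3 to 48.6 FPKM). OTX2 (17.8 to 23.3) and EVX1 (13.0 to 18.1) overlapped, and so did CDX2 (8.08 to 11.7) and MIXL1 (5.79 to 12.2). The remaining factors lay at 1.20 FPKM or less, with intervals that overlapped along the order MESP2, MESP1, CDX1, GSC and CDX4.

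**Figure D3:**
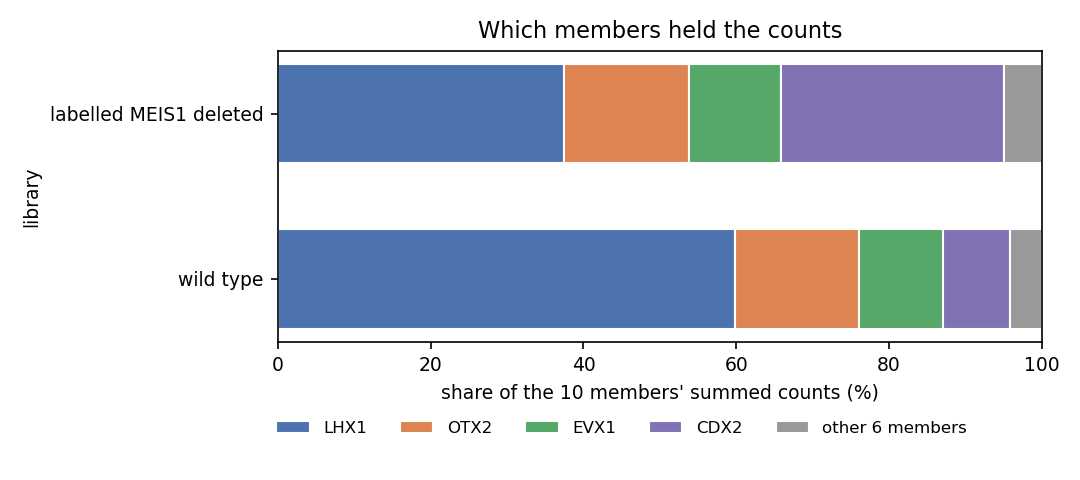
Share of the summed counts of the 10 factors held by LHX1, OTX2, EVX1, CDX2 and the other 6 factors, in the library labelled MEIS1 deleted (upper bar) and the wild-type library (lower bar). LHX1 held 37.4% labelled deleted against 59.9% in wild type, and CDX2 29.1% labelled deleted against 8.85% in wild type. A share also depends on the counts of the other factors.

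The 10 factors together had 580 counts in the library labelled deleted and 1356 in the wild-type library. LHX1 held 37.4% of that sum in the library labelled deleted (exact 95% binomial interval 33.5 to 41.5) and 59.9% in the wild-type library (57.2 to 62.5). CDX2 held 29.1% in the library labelled deleted (25.5 to 33.0) and 8.85% in wild type (7.39 to 10.5). A share also depends on the counts of the other factors. The CDX2 counts were 169 in the library labelled deleted and 120 in wild type, 1.39-fold higher. The shares of OTX2 were 16.4% in the library labelled deleted and 16.2% in wild type, and those of EVX1 12.1% in the library labelled deleted and 10.9% in wild type, with overlapping intervals. Without LHX1 the other 9 factors had 363 counts in the library labelled deleted and 544 in wild type, a 1.51-fold lower sum (1.32 to 1.73), against 2.36-fold (2.14 to 2.61) for all 10.

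**Figure D4:**
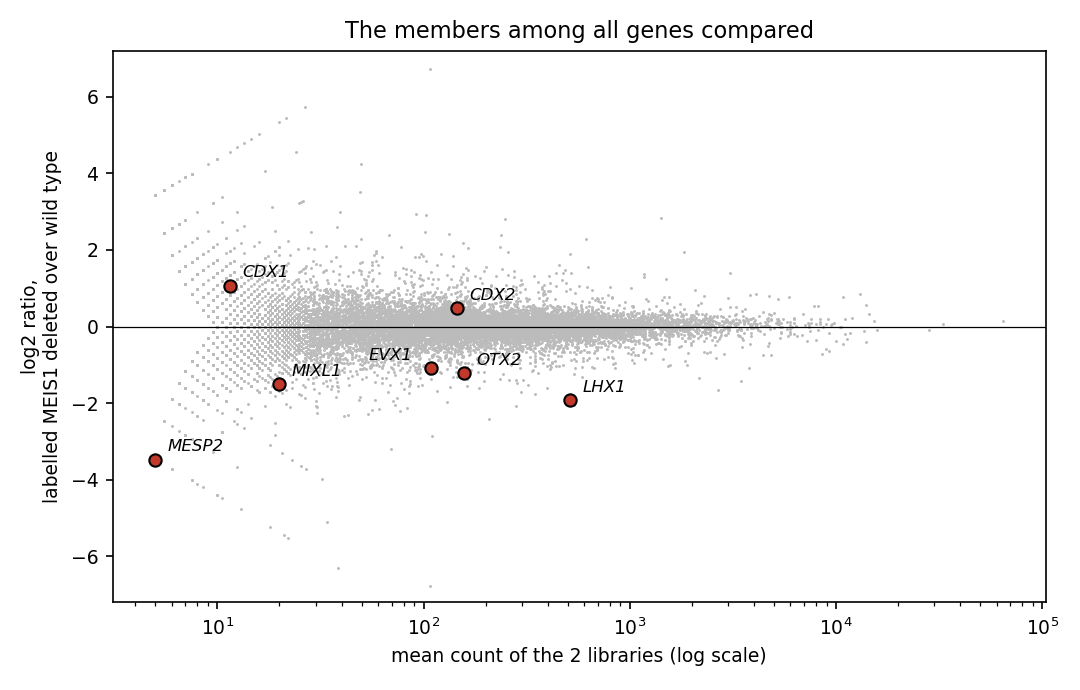
Log2 ratio of the library labelled MEIS1 deleted over wild type against the mean count of both libraries (log axis) for the 14381 genes compared (grey), with the 7 factors that reached the minimum in red. LHX1, OTX2 and EVX1 lie below the main cloud at their counts, and MESP2 and CDX1 lie among genes with few counts.

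Streak genes of other families lay on the lower side with the factors. Of 22 listed symbols 16 were compared, with a median log2 ratio of -1.10. Of these, 11 were lower (68.8%, against 14.7% of all genes), 1 was higher (6.25%, against 15.4%) and 4 were not called. EOMES, CER1, FGF17 and TBXT had log2 ratios of -2.05, -2.11, -1.94 and -1.41. WNT3, the WNT ligand that starts the streak in the mouse, had 190 counts in the library labelled deleted and 400 in the wild-type library (log2 ratio -1.08, -1.35 to -0.84). DLL3, a Notch pathway gene of somite segmentation, had 3 counts in the library labelled deleted and 43 in wild type and a log2 ratio of -3.47 (-6.19 to -2.21). TBX6, a T-box factor of presomitic mesoderm, had 8 counts in the library labelled deleted and 28 in wild type and a log2 ratio of -1.70 (-3.17 to -0.65). WNT3, DLL3 and TBX6 were chosen after their values were seen. DLL3 and TBX6 reached the minimum of 10 counts only through the wild-type library, so they had to differ in their point values. PDGFRA, a growth factor receptor of mesoderm, was the higher gene (589 counts in the library labelled deleted and 425 in wild type, log2 ratio 0.45, 0.27 to 0.64).

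**Figure D5:**
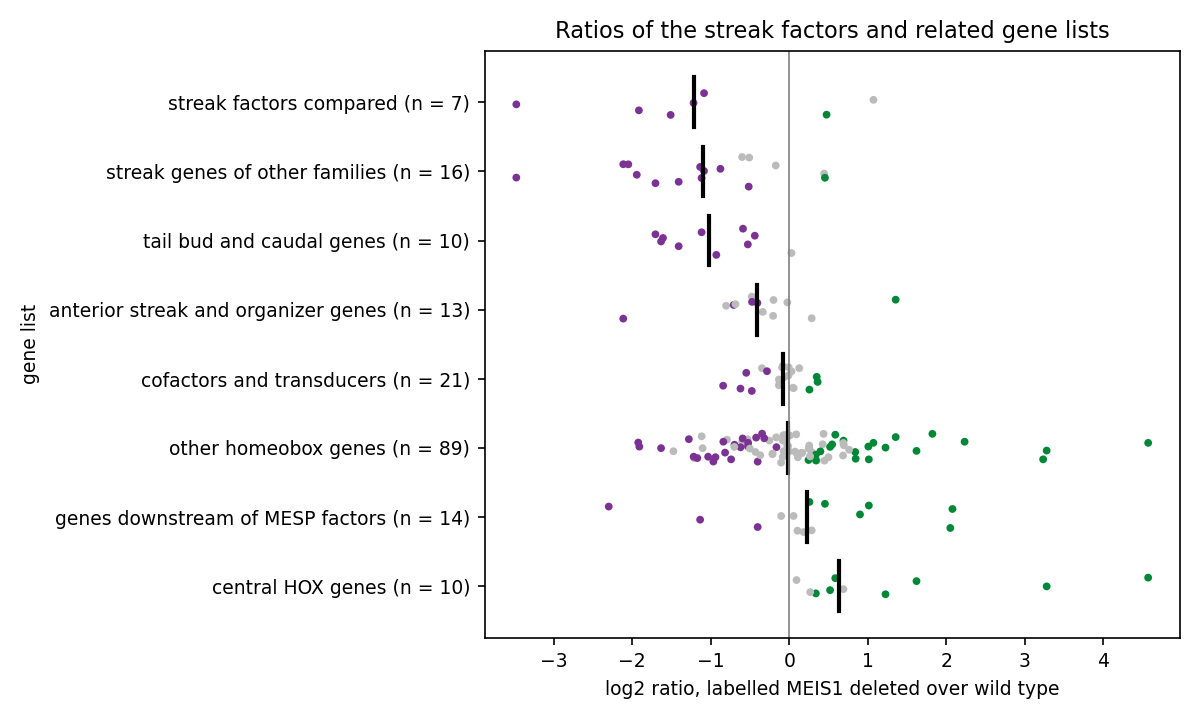
Log2 ratio of the library labelled MEIS1 deleted over wild type for genes with at least 10 counts in the streak factors and 7 related lists; each point is a gene (purple lower, green higher, grey with an interval that includes 0) and black bars are medians. Some genes are in several lists; the medians run from -1.22 for the factors to 0.64 for the central HOX genes.

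Tail bud and caudal genes, which neighbour the CDX genes in function, were lower for 9 of 10 compared (90%, against 14.7% of all genes). GDF11 had an interval that included 1, and the median was -1.02. TBXT, WNT3A, WNT8A, FGF8, SP5, TBX6 and MSGN1 are also in the list of streak genes, so these lists are not separate results. CYP26A1, which degrades retinoic acid at the posterior end, had a log2 ratio of -1.61. SP5 and SP8, zinc finger factors that act with WNT, had log2 ratios of -1.12 and -0.93, and the SP5 count was not whole, as happens where reads are divided between genes. Central HOX genes, on which CDX proteins act in the mouse, lay the other way, with a median of 0.64. Of 10 compared, 7 were higher (70%, against 15.4% of all genes) and 0 were lower. The list runs from HOXA5 to HOXA10 with their HOXB and HOXC relatives. It therefore also takes in HOX9 and HOX10 genes, which are usually classed as posterior. HOXB9, among these, had 656 counts in the library labelled deleted and 432 in the wild-type library (log2 ratio 0.59, 0.41 to 0.77). HOXC8 had 47 counts in the library labelled deleted and 1 in wild type, and HOXC6 48 counts in the library labelled deleted and 4 in wild type, and both were chosen after their values were seen. Both reached the minimum of 10 counts only through the library labelled deleted, so they had to differ in their point values. With a minimum of 50 counts the median of the central HOX genes was 0.43, over 6 genes.

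Anterior streak and organizer genes are the relatives of GSC, LHX1 and OTX2 by place. Of 13 compared, 4 were lower (30.8%, against 14.7% of all genes), 1 was higher (7.69%, against 15.4%) and 8 were not called (median -0.41). CER1 and LEFTY1 are also in the list of streak genes. SOX17, an endoderm factor, had 285 counts in the library labelled deleted and 461 in the wild-type library (log2 ratio -0.71). FOXA2, a forkhead factor of the anterior streak, had 52 counts in the library labelled deleted and 72 in wild type and an interval of -1.03 to 0.05. HHEX, a homeobox gene of anterior endoderm and of blood and endothelial progenitors, was the higher gene, with 105 counts in the library labelled deleted and 40 in wild type and a log2 ratio of 1.36.

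Cofactors and signal transducers of the streak factors had a median of -0.084, and 0 of 21 compared differed by 2-fold. Over all genes 2.95% were called lower and 2.9% higher by at least 2-fold, so 0 of 21 is near the share of all genes. Of these 21, 5 were lower (23.8%, against 14.7% of all genes), 3 were higher (14.3%, against 15.4%) and 13 were not called. FOXH1, the SMAD partner in the NODAL pathway, had 96 counts in the library labelled deleted and 171 in the wild-type library (log2 ratio -0.84, -1.22 to -0.48). LDB1, the cofactor that binds LIM homeodomain proteins such as LHX1, had 523 counts in the library labelled deleted and 520 in wild type (log2 ratio -0.0067, -0.18 to 0.17). Its relative LDB2 had 694 counts in the library labelled deleted and 956 in wild type (log2 ratio -0.48). LDB1 was chosen after its values were seen.

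Genes known to lie downstream of MESP factors, mostly from the mouse, went in both directions. Of 14 compared, 6 were higher (42.9%, against 15.4% of all genes), 3 were lower (21.4%, against 14.7%) and 5 were not called (median 0.22). PDGFRA and SNAI1 are also in the list of streak genes, and DKK1 is in the anterior list. The heart genes HAND2 and MEF2C had log2 ratios of 2.05 and 2.08, while SNAI1 and ETV2 had -1.13 and -2.30. RIPPLY1, a repressor that acts with MESP2 in somite segmentation, was under the minimum with 0 counts in the library labelled deleted and 8 in the wild-type library, and was chosen after its values were seen.

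The other homeobox genes served as a comparison by gene class. Of 202 symbols 89 were compared, with a median of -0.015. Of these, 22 were lower (24.7%, against 14.7% of all genes), 21 were higher (23.6%, against 15.4%) and 46 were not called. The list holds all the central HOX genes and HHEX, so it is not separate from the lists above. HOPX had 142 counts in the library labelled deleted and 39 in the wild-type library (log2 ratio 1.82), and IRX3 had 20 counts in the library labelled deleted and 77 in wild type (log2 ratio -1.91). The IRX3 counts were not whole. The closest relatives GSC2, EVX2, OTX1 and LHX5 were listed in neither table. CRX, a relative of OTX2, had 47 counts in the library labelled deleted and 76 in wild type (log2 ratio -0.70), and LHX4, a relative of LHX1, had 3 counts in the library labelled deleted and 14 in wild type (log2 ratio -1.92). These 6 relatives were chosen after their values were seen. LHX4 reached the minimum of 10 counts only through the wild-type library, so it had to differ in its point values.

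Markers of other cell types in which these factors act had the following levels, and their part in the results was not tested. For comparison, 14.7% of all genes were lower and 15.4% were higher by the same rule. Of 8 pluripotent cell markers 8 were detected in both libraries, with summed levels of 2019 CPM (counts per 1000000 of effective library size) in the library labelled deleted and 2372 CPM in wild type, and 5 of 7 compared were lower, among them POU5F1 and NANOG, whose counts were not whole. Of 12 neural ectoderm markers, which bear on OTX2, 4 were at 0 in both libraries (SOX1, RAX, SIX6, LMX1A), and the sums were 3.41 CPM in the library labelled deleted and 4.40 CPM in wild type. Of 10 amnion and trophoblast markers, which bear on CDX2, 3 of 8 compared were lower and 2 higher, with sums of 244 CPM in the library labelled deleted and 313 CPM in wild type and CGA at 0 in the library labelled deleted. GABRP was the higher one with most counts (188 in the library labelled deleted, 72 in wild type), and GATA3 was lower (410 in the library labelled deleted, 507 in wild type). Of 10 kidney and intermediate mesoderm markers, which bear on LHX1, WT1 was at 0 in both libraries and the sums were 183 CPM in the library labelled deleted and 248 CPM in wild type, most of it SALL1. Endoderm markers summed to 254 CPM in the library labelled deleted and 267 CPM in wild type, with TTR at 0 in the wild-type library. These sums hide differences in opposite directions. Of 8 compared, APOA1 was higher (240 counts in the library labelled deleted, 82 in wild type, log2 ratio 1.52). SOX17 was lower (log2 ratio -0.71) and 6 were not called. Endothelial markers summed to 1310 CPM in the library labelled deleted and 1003 CPM in wild type, 6 of 6 compared were higher, and CLDN5 was at 0 in both libraries.

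Of 4 compared genes next to the factors or overlapping them, 1 was lower (against 14.7% of all genes) and 3 were not called. LIN9, next to MIXL1, had 107 counts in the library labelled deleted and 90 in wild type (log2 ratio 0.23, -0.18 to 0.66), and AATF, next to LHX1, had 429 counts in the library labelled deleted and 424 in wild type (0.0019, -0.20 to 0.20). PDGFRB, next to CDX1, had 362 counts in the library labelled deleted and 396 in wild type (-0.14, -0.35 to 0.06). ANPEP, next to MESP2, was lower like it, with 107 counts in the library labelled deleted and 232 in the wild-type library (log2 ratio -1.12, -1.48 to -0.79). Whether the kit kept strand was not stated, so reads of overlapping genes on opposite strands cannot be told apart. RefSeq places WDR93 over MESP1, EVX1-AS over EVX1 and LOC124903550 over MESP2. WDR93 had 0 counts in the library labelled deleted and 4 in wild type, and EVX1-AS and LOC124903550 were listed in neither library. OTX2-AS1, next to OTX2 and not overlapping it, had 9 counts in the library labelled deleted and 3 in wild type. OTX2-AS1 and WDR93 were chosen after their values were seen.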

How the data were processed

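The authors deposited, for each library, a table of expected counts (estimated counts per gene that need not be whole, not scaled) and FPKM values (scaled for gene length and depth), per the file headers. The submitters' processing notes name BWA, Bowtie, RSEM and build hg19 without saying which made the tables. Genes absent from a table were taken as 0. Symbols came from a RefSeq table of GRCh38.p14, which matched 18413 of 18518 gene numbers. Expected counts were rounded and scaled by TMM factors (edgeR 4.0.16, R 4.3.3), giving effective sizes that differed 1.01-fold. Log2 ratios used a pseudocount of 1. Clopper-Pearson 95% intervals are conditional on the summed count (scipy 1.17.1) and, like the floor of 3 counts, cover counting error only. Variation between cultures is outside them because each genotype had 1 library. They also treat counts as independent, which PCR copies are not. A gene was compared where either library had 10 counts or more. The computation was tested on simulated data. The rule for named genes took all factors, up to 4 genes of each list with the largest absolute ratio among those with at least 50 counts, and neighbours with at least 10 counts. The text gives part of these. Factors and lists were chosen with earlier results of these data known. Alternatives changed scaling, rounding, pseudocount, unit, minimum count, interval width and fold.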

Additional observations from a re-analysis of the deposited data

How the results depend on the processing

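No paired analysis was possible because each genotype had 1 library, and no library could be left out. Log2 ratios of the 10 factors kept their sign in 7 of 7 alternatives each, and 69 of 70 values stayed inside the counting interval. The exception was MESP2 from FPKM with a pseudocount of 1, at -1.14. Changed scaling moved log2 ratios by at most 0.015 and all 10 factors had whole counts, so scaling and rounding could hardly change a sign. For GSC, CDX1, CDX4 and MESP1 the counting interval included a ratio of 1, so a kept sign does not settle their direction. With 99% intervals 5 factors were lower and 1 higher, as with 95%. With a minimum of 50 counts 3 factors were lower, of 4 compared. Genes lower and higher by at least 2-fold then numbered 171 and 161, against 424 and 417, and 893 and 827 at 1.5-fold or 81 and 111 at 4-fold. Of 63 list medians 62 stayed between the medians of their members' interval limits, and the tail bud median was -0.59 with genes of 1 count let in. The median of the other homeobox genes was 0 with RLE factors. Depth limits GSC, CDX4, MESP1, MESP2, MIXL1 and CDX1 most.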
